A study of Rattus norvegicus with 2 samples.

Results

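The transporters described here are the gene families that carry most amino acids across the membranes of mammalian cells: Slc1a, Slc3a, Slc7a, Slc36a, Slc38a and Slc43a. Members were all gene symbols that start with one of these stems followed by digits. The rule found 43 of 28116 symbols, of which 42 name transporter genes. The remaining symbol, Slc7a6os, names a gene on the opposite strand next to Slc7a6 that is not a transporter and was matched by its name only. The sources used here do not state whether counting used the strand, so the values of Slc7a6 and Slc7a6os are uncertain. All cells came from colon of wild-type fetal rats (Rattus norvegicus) at embryonic day E19.5, in 1 library of a control group and 1 library of a maternal obesity group. The labels give neither how maternal obesity was produced, nor the number of fetuses in a library, nor the stretch of colon taken. Cells were tagged in droplets so that each captured transcript carries a unique molecular identifier (UMI).

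Amino acids enter an absorptive epithelial cell through carriers of the brush border and leave it through exchangers of the basolateral membrane. Slc3a proteins are heavy chains that bring their Slc7a light chains to the cell surface. Slc1a members carry acidic amino acids or exchange small neutral ones, Slc38a members take up neutral amino acids with sodium or act in lysosomes, Slc36a members move amino acids with protons, and Slc43a1 and Slc43a2 let large neutral amino acids pass down their gradient.

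There were 8903 barcodes with 103013814 UMIs in control, and 9714 with 120811946 UMIs in maternal obesity. After filters on genes, mitochondrial share and likely doublets, 6500 and 6817 cells were left, and 99 and 97 of these carried a barcode that also occurs in the other library. Epithelial-like cells numbered 2426 in control (37.3%) and 1291 in maternal obesity (18.9%). Epcam, which defines epithelium, stood at 2737 and 2633 UMIs per 1000000 there, and Col1a1, a collagen gene of mesenchyme, at 0.0456% and 0.0449% of its fibroblast-like level. The make-up of the epithelium differed between the libraries: proximal absorptive-like cells were 18.1% of the control epithelium and 49.3% of that in maternal obesity, goblet-like cells 12.6% and 2.25%, and distal surface-like cells 9.93% and 0.93%. These shares leave out sub-clusters that stayed unnamed. Of these, E1 (6.80% and 1.70%) and E3 (6.14% and 1.32%) scored highest for distal surface markers, and E14 (3.46% and 0.62%) for goblet markers. The defensin-rich secretory-like sub-cluster was named by its leading genes. Its highest mean log2 fold was that of the goblet markers (1.30), 0.18 above that of the defensin-rich markers. Several genes known from the small intestine were present in the tissue labelled colon and were higher in the maternal obesity library, among them the bile acid carrier gene Slc10a2 (4.04 and 11.3 on the same scale, in the epithelium) and the chemokine gene Ccl25 (1.10 and 16.9), while Atp12a, a proton pump gene of distal colon surface cells, was lower (19.4 and 2.92). Each group is 1 library, so no test between groups is possible. Differences are between 2 libraries, and the 95% intervals cover counting error only.

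Levels are given as CPM, the UMIs of a gene per 1000000 UMIs of the cells named. They count tagged 3′ ends and are not scaled by gene length. Of the 43 members, 33 reached 20 UMIs when the epithelium of both libraries was added up and 10 had fewer. Slc1a2, Slc1a7 and Slc36a3 had none there. A count of 0 in the epithelial-like cells allows up to 0.06 CPM in control and 0.0769 in maternal obesity. Over all cells 9 members had under 100 UMIs and are not described one by one, apart from names, UMI counts and promoter matches.

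**Figure D1:**
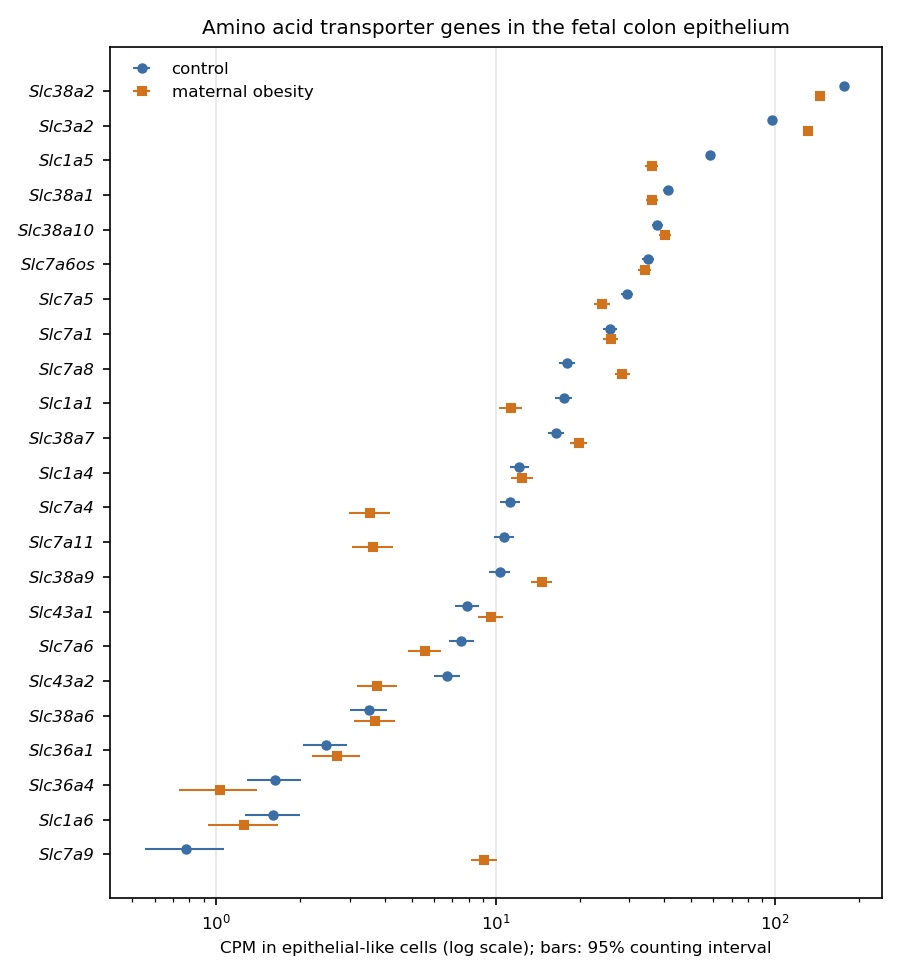
Level of the 23 members with at least 100 UMIs in epithelial-like cells, on a log axis in CPM, for the control library (circles) and the maternal obesity library (squares), with 95% counting intervals. Slc38a2 and Slc3a2 stand highest in both libraries, and the widest gap between the libraries is that of Slc7a9 at the bottom.

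The transporter RNA of the fetal epithelium was concentrated in a few genes. The members summed to 637.0 CPM in control and 609.6 in maternal obesity, and the 4 highest members of each library made up 58.9% and 58.0% of that sum. Slc38a2, a sodium-coupled carrier of small neutral amino acids that cells induce when amino acids run short, was the highest, at 177 CPM in control and 145 in maternal obesity. Slc3a2, the heavy chain of most Slc7a light chains, followed at 97.7 and 131. Slc1a5, the main glutamine exchanger of dividing cells, came next in control at 58.8 and stood at 36.3 in maternal obesity. Slc38a1, a glutamine carrier, had 41.5 and 36.4, and Slc38a10 had 37.9 and 40.4. Slc7a5, the leucine exchanger light chain, had 29.5 and 24.1, and Slc7a1, the widespread carrier of arginine and lysine, had 25.7 and 25.8.

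In epithelial-like cells 5 of the 33 members were at least 1.5-fold higher in maternal obesity and 10 were at least 1.5-fold lower. Over all 13354 genes with as many UMIs, 11.9% were that much higher and 12.6% that much lower. The median log2 ratio of the members, maternal obesity over control, was -0.04, beside 0.04 for all those genes. The 5 higher members were Slc7a9, Slc7a8, Slc7a3, Slc3a1 and Slc38a3, and the intervals of the last 2 included 1. The 10 lower members were Slc1a1, Slc1a5, Slc7a11, Slc7a4, Slc43a2, Slc36a4, Slc38a5, Slc38a11, Slc7a14 and Slc7a2, and the intervals of the last 2 included 1. With the ratio averaged over the 8 epithelial sub-clusters that had at least 30 cells in each library, each with equal weight, 3 members were at least 1.5-fold higher and 3 at least 1.5-fold lower, and the median was 0.22. That mean leaves out goblet-like, distal surface-like and enteroendocrine-like cells and the sub-clusters E1, E3 and E14, which had fewer cells in a library. With the same 8 sub-clusters pooled without equal weight, a setting added after seeing the data, 3 members were higher and 4 lower, and the median was 0.000155.

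Slc7a9, the brush border exchanger that takes up cystine, arginine and lysine and is mutated in cystinuria, had the highest ratio of the 23 members in the plot of epithelial levels. It had 39 UMIs in control epithelial-like cells (0.78 CPM) and 354 in maternal obesity (9.08), which is 11.6-fold higher (interval 8.35 to 16.6). Its log2 ratio was 3.52, and 4.49 with the components centred per library and the cells clustered again. That clustering changed which cells were called epithelial-like, to 1618 in control and 1268 in maternal obesity, against 2426 and 1291. Without thinning, the share of epithelial-like cells that held a Slc7a9 UMI was 1.48% in control, against 17.3%. Thinned to 3000 UMIs per cell, with 133 and 58 shallower cells left out, the shares were 0.349% (0.151 to 0.686) and 2.19% (1.45 to 3.17). Slc7a9 in non-epithelial cells, where a UMI may come from free RNA, was found in 0 of 2877 thinned control cells, which allows up to 0.128% (exact upper bound), and in 0.0459% of those in maternal obesity, with median depths of 7969 and 8482 UMIs per cell against 16826 and 24502 in epithelial-like cells. Epcam, as a gauge of free epithelial RNA, stood in fibroblast-like cells at 3.47% and 2.47% of its epithelial level.

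The Slc7a9 difference was also present within types. In proximal absorptive-like cells its level was 1.90 CPM in control and 13.8 in maternal obesity, 7.25-fold higher (4.60 to 12.05), from 20 and 283 UMIs. Slc7a9 in fetal carrier-like cells, which are led by the liver and yolk sac genes Afp and Rbp4, was 5.48-fold higher (2.24 to 16.2), and in immature-like cells, led by Shh and Tdh, it was 11.1-fold higher (2.73 to 96.8). It was higher in maternal obesity in 8 of 8 sub-clusters of the equal weighting, 3 of them proximal absorptive-like, with a mean log2 ratio of 2.27. In the Olfm4 progenitor-like sub-cluster that count rests on 3 and 1 UMIs of Slc7a9. In sub-cluster E9 it rests on 3 and 10 UMIs, and in the defensin-rich secretory-like sub-cluster on 2 and 7. The Slc7a9 interval included 1 in each of these sub-clusters with few UMIs. The 3 proximal absorptive-like sub-clusters differed in the size of the Slc7a9 ratio, from 2.98-fold (1.31 to 7.95) in the one led by Slc10a2 to 17.2-fold (5.65 to 85.8) in the one led by Enpep, Adgrg7 and Otc. Whether the stretch of gut in each library had a part in these ratios was not tested.

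The heavy chain that Slc7a9 needs in kidney and small intestine, Slc3a1, was barely present. Slc3a1 had 25 UMIs in control epithelial-like cells (0.50 CPM) and 31 in maternal obesity (0.79), with a ratio of 1.59 (0.909 to 2.81), and it was higher outside the epithelium, at 1.11 and 1.95. In proximal absorptive-like cells, the epithelial type with the most UMIs of it, Slc3a1 had 2 in control and 19 in maternal obesity, a ratio of 4.87 (1.17 to 43.1). Among thinned epithelial-like cells, 8 in control and 27 in maternal obesity held Slc7a9 and 8 and 2 held Slc3a1, and 0 cells in either library held both. For comparison, 62 of the 202 control cells with Slc7a5 also held its heavy chain Slc3a2, a share of 30.7%, beside 25.2% of all control cells, and in maternal obesity it was 27 of 80 (33.75%), beside 32.8%. Of the cells with the light chain Slc7a6, 19 of 61 in control (31.1%) and 3 of 25 in maternal obesity held Slc3a2. At this depth a joint presence of Slc7a9 and Slc3a1 in a cell was not detectable.

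The genes whose levels over 17 cell classes in both libraries (34 values) were most like those of Slc7a9 were Adtrp (Pearson r 0.92), Slc51b (0.90), Fga (0.89), LOC103690068 (0.89) and AABR07000147.1 (0.89). Slc51b encodes a subunit of the basolateral bile acid exporter of enterocytes and Fga a fibrinogen chain. These correlations describe classes that share the same 2 libraries.

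The promoter window of Slc7a9 is shown because its level differed most between the libraries among the 23 members with at least 100 UMIs in the epithelium. It covers the 250 bases before the RefSeq start in build GRCr8, chr1:97246632-97246881 on the plus strand, and the capitals mark the letters TTAATNATT, the core that factors of the HNF1 family recognise in enterocyte and kidney genes.
Slc7a9: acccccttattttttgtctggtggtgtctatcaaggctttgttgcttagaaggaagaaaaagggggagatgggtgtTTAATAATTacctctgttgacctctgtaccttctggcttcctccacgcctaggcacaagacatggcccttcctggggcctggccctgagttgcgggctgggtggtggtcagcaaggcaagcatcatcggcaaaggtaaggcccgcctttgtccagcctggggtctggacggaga
The match begins 174 bases before the start. This motif was chosen after the sequence had been read, and windows were matched for 33 members by symbol. On either strand it lay in 4 of the 33 member windows (12.1%), those of Slc7a9, Slc7a8, Slc7a12 and Slc7a15, and in 1.34% of all 27457 windows of this length. The 4 include the Slc7a9 window itself. Slc7a12 and Slc7a15 were barely present, with 1 and 8 UMIs in the epithelium of both libraries added up. The letters TGATGNAA, the core that Atf4 recognises when amino acids are short, lay on either strand in 3 member windows (9.09%), those of Slc1a4, Slc38a1 and Slc7a1, and in 3.27% of all windows. Of those 3 genes, Slc38a1 was at 0.877-fold of control in the epithelium (0.819 to 0.939), Slc1a4 at 1.02 (0.907 to 1.16) and Slc7a1 at 1.00 (0.923 to 1.09). A match of letters is no evidence that a factor binds.

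**Figure D2:**
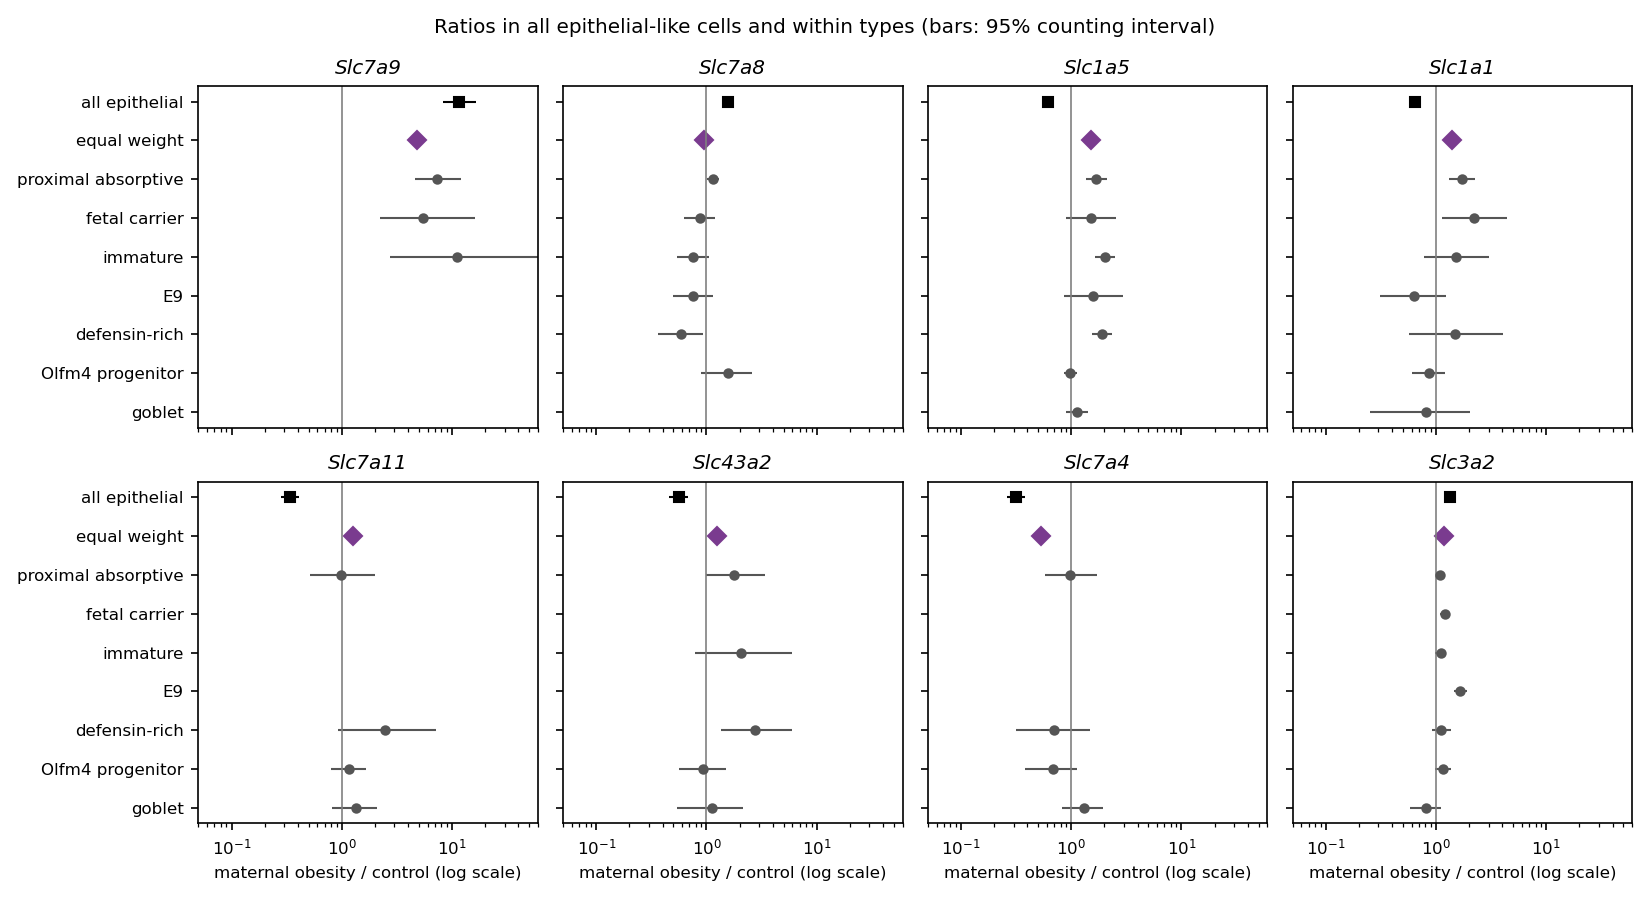
Ratio of maternal obesity over control on a log axis for 8 members, in all epithelial-like cells (square), as the equal-weight mean over 8 sub-clusters (diamond) and within epithelial types with at least 20 UMIs (circles), with 95% counting intervals cut at the axis limit. Slc7a9 lies right of 1 in each row drawn, while Slc1a5, Slc1a1, Slc7a11 and Slc43a2 lie left of 1 in the square and right of 1 in the diamond.

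Slc7a8, a basolateral exchanger of neutral amino acids, was higher in the pooled epithelium of maternal obesity, while its ratios within types lay on both sides of 1. It stood at 18.0 CPM in control and 28.5 in maternal obesity, 1.58-fold higher (1.45 to 1.73). In proximal absorptive-like cells, where it was highest among the 6 epithelial types with at least 50 cells in each library, Slc7a8 had 35.98 and 40.9, a ratio of 1.14 (1.01 to 1.29). With the barcodes shared by both libraries left out and the cells clustered again, the log2 ratio of Slc7a8 in the cells so named was 0.91, against 0.18. In defensin-rich secretory-like cells it was 0.583-fold of control (0.361 to 0.922). The equal-weight mean log2 ratio of Slc7a8 was -0.07, so the pooled direction did not hold there. The other basolateral exchangers, Slc7a7 and Slc7a6, had 0.88 and 1.05, and 7.54 and 5.59 CPM.

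Slc3a2, the shared heavy chain, was 1.34-fold higher in the maternal obesity epithelium (1.29 to 1.40), short of the 1.5-fold limit. It was above control in 6 of the 6 epithelial types with at least 50 cells in each library, and 3 of these intervals lay above 1. The ratio of Slc3a2 was highest among them in cluster E9, led by the heat shock gene Hspa1b and by Adora2b, at 167 CPM in control and 279 in maternal obesity, 1.67-fold (1.46 to 1.90). In goblet-like cells, with 29 cells in maternal obesity, it was 0.815-fold (0.579 to 1.12).

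Slc1a5, Slc7a11, Slc7a4 and Slc43a2, which were put together after their values were seen, were lower in the pooled maternal obesity epithelium and higher in goblet-like than in proximal absorptive-like cells of both libraries. Slc1a5 had 2941 UMIs in control epithelial-like cells and 1414 in maternal obesity and was 1.62-fold lower (1.52 to 1.73). Its level was 156 and 176 CPM in goblet-like cells, 122 and 120 in Olfm4 progenitor-like cells, and 10.3 and 17.4 in proximal absorptive-like cells. Within each of these 3 types Slc1a5 was therefore not lower in maternal obesity beyond counting error: the ratios were 1.13 (0.899 to 1.41), 0.983 (0.853 to 1.13) and 1.69 (1.36 to 2.11). In immature-like cells Slc1a5 was 2.01-fold higher (1.64 to 2.48) and in defensin-rich secretory-like cells 1.89-fold higher (1.54 to 2.34), at 67.4 and 127 CPM.

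Slc7a11, the cystine and glutamate exchanger that feeds glutathione synthesis, stood at 10.7 CPM in control and 3.64 in maternal obesity and was 2.94-fold lower (2.44 to 3.57) in the pooled epithelium. Its log2 ratio of -1.55 became -2.21 with the components centred per library, in a different set of 1618 and 1268 epithelial-like cells. In goblet-like cells it had 32.5 and 43.5 CPM, from 135 and 23 UMIs, and the ratio of 1.34 (0.821 to 2.09) included 1; 30.4% of the 23 Slc7a11 UMIs came from 1 cell. In Olfm4 progenitor-like cells Slc7a11 had 16.7 and 19.4, a ratio of 1.16 (0.798 to 1.65), and in proximal absorptive-like cells 1.43 and 1.41. The goblet-like level of Slc7a11 was thus far above the proximal absorptive-like level in both libraries.

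Slc7a4, a member of the cationic carrier branch whose substrate is not settled, was likewise far higher in goblet-like than in proximal absorptive-like cells. It had 11.3 CPM in control and 3.54 in maternal obesity, 3.18-fold lower (2.64 to 3.86). Its log2 ratio of -1.67 became -2.27 with the components centred per library, in that different set of epithelial-like cells. In goblet-like cells Slc7a4 had 39.5 and 51.1 and in proximal absorptive-like cells 2.19 and 2.14. It was lower in maternal obesity also with equal weight, with a mean log2 ratio of -0.90 and 1 of the 8 sub-clusters higher. That mean rests in part on few UMIs: 1 and 0 in sub-cluster E9, 6 and 1 in fetal carrier-like cells, and 8 and 2 in immature-like cells. None of the 3 types with at least 20 UMIs and at least 50 cells in each library had a Slc7a4 interval clear of 1. In Olfm4 progenitor-like cells the ratio of Slc7a4 was 0.677 (0.381 to 1.13).

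Slc43a2, a basolateral facilitator of branched-chain and aromatic amino acids, stood at 6.72 CPM in control and 3.77 in maternal obesity and was 1.78-fold lower (1.46 to 2.18). It had 18.5 and 20.8 in goblet-like cells and 11.4 and 10.6 in Olfm4 progenitor-like cells. In defensin-rich secretory-like cells Slc43a2 was 2.76-fold higher in maternal obesity (1.35 to 5.98), from 12 and 27 UMIs, at 5.28 and 14.6 CPM. Its relative Slc43a1 differed less, with 7.92 and 9.62 CPM in the epithelium.

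Slc1a1, the glutamate and aspartate carrier of the intestinal brush border, was highest in distal surface-like cells. Its level was 67.3 CPM in control distal surface-like cells and 86.2 in maternal obesity, the latter from 18 UMIs in 12 cells. In proximal absorptive-like cells Slc1a1 had 6.85 and 11.7, a ratio of 1.71 (1.31 to 2.26). In the pooled epithelium it was 1.54-fold lower (1.38 to 1.74), at 17.5 and 11.3, and with equal weight its mean log2 ratio was 0.48. Slc1a1, Slc1a5, Slc7a11 and Slc43a2 were thus lower over all epithelial-like cells and higher as an equal-weight mean, which goblet-like and distal surface-like cells were too few in maternal obesity to enter. These members were higher in maternal obesity in 6, 7, 6 and 4 of the 8 sub-clusters, in that order. For Slc7a11 and Slc43a2 that mean rests in part on few UMIs. In the proximal absorptive-like sub-cluster E8, Slc7a11 had 3 and 3 UMIs and Slc43a2 had 1 and 4. With the 8 sub-clusters of that mean pooled, the log2 ratios were -0.06 for Slc1a1, -0.46 for Slc1a5, -1.003 for Slc7a11 and -0.34 for Slc43a2.

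Of Slc38a9, Slc38a7, Slc36a1 and Slc36a4, only the last passed 1.5-fold in the epithelium. Slc38a9, the lysosomal arginine sensor upstream of mTORC1, had 10.3 and 14.6 CPM, a ratio of 1.41 (1.25 to 1.60), and in proximal absorptive-like cells 13.7 and 15.99. Slc38a7, a lysosomal glutamine carrier, had 16.5 and 19.9, and its highest level among the epithelial types was in fetal carrier-like cells, at 31.4 and 26.3. Slc36a1, the lysosomal and brush border proton-coupled carrier, had 2.46 and 2.69 and a ratio of 1.09 (0.836 to 1.43). Slc36a4 was 1.58-fold lower (1.07 to 2.37), at 1.62 and 1.03, from 81 and 40 UMIs.

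Enteroendocrine-like cells were marked by a pair of members that other epithelial types nearly lacked. Slc38a5, a glutamine and serine carrier, had 43.3 CPM there in control and 31.4 in maternal obesity, and 26 of its 32 control epithelial UMIs lay in these 37 cells. Slc7a14, a lysosomal member, had 12 UMIs there in control and 1 in maternal obesity. With 7 enteroendocrine-like cells in maternal obesity, no difference between libraries could be read for Slc38a5 or Slc7a14.

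**Figure D3:**
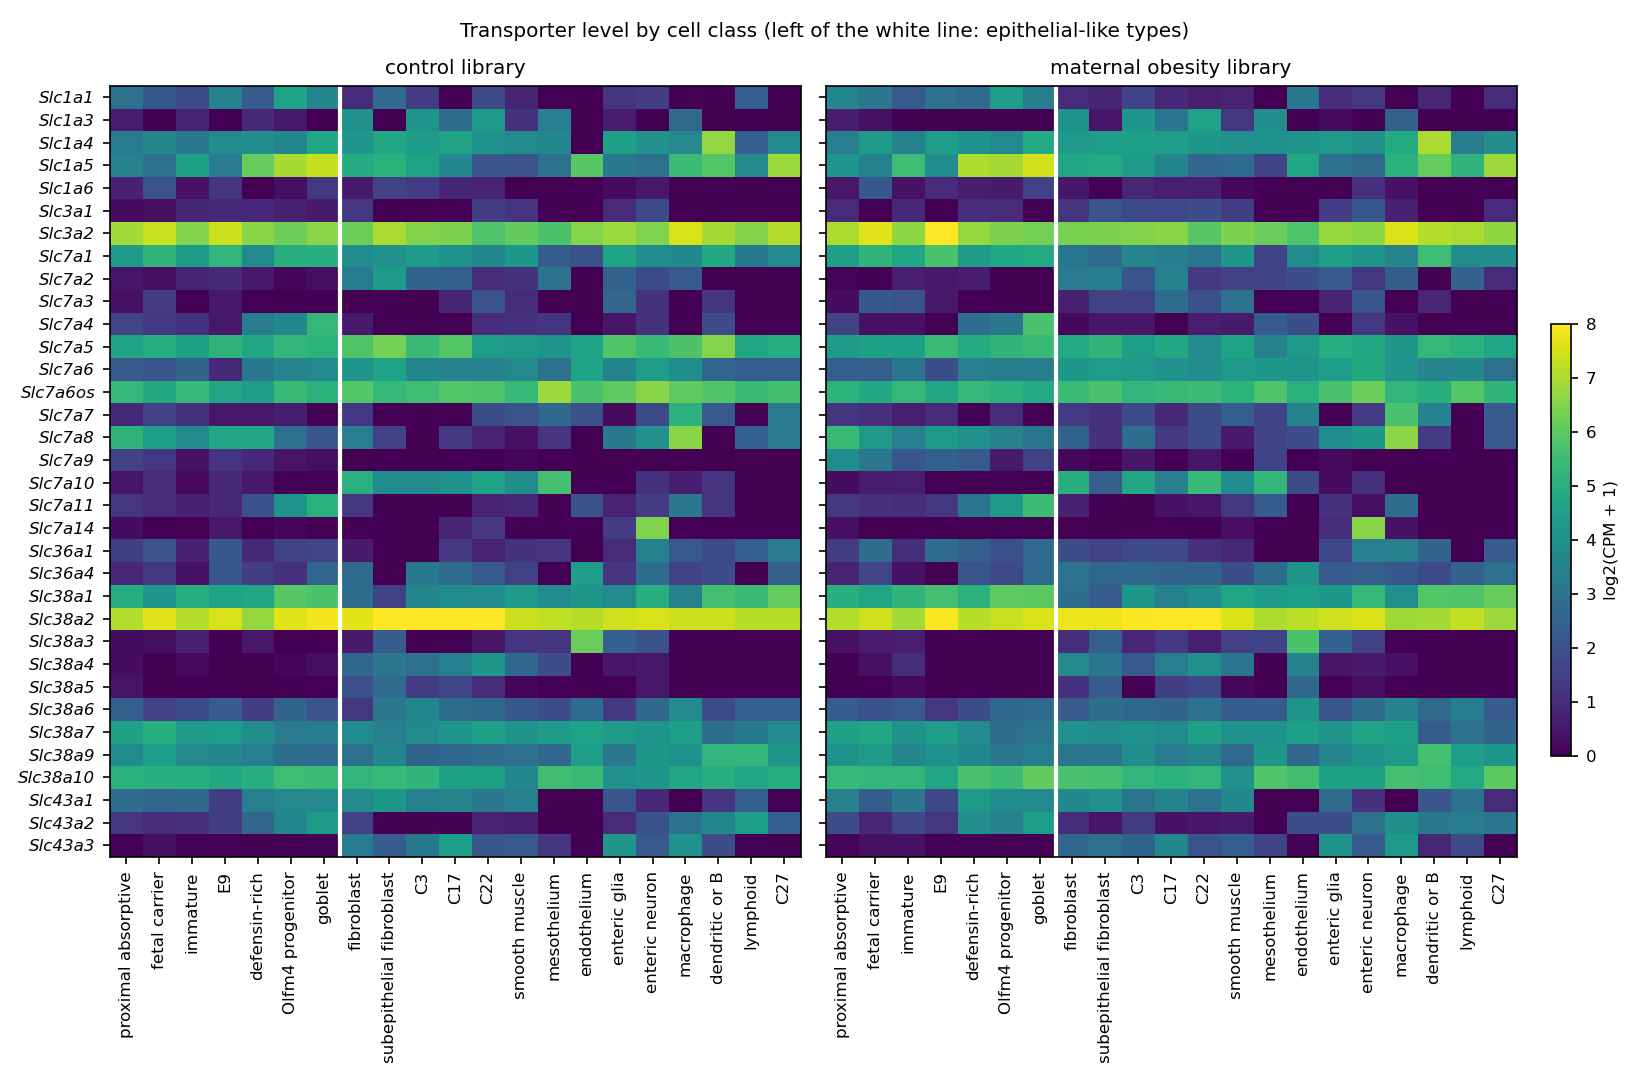
Level of the 34 members with at least 100 UMIs over all cells (rows), as log2 of CPM plus 1, in 7 epithelial types and 14 other classes (columns), for each library. Slc38a2, Slc3a2 and Slc7a6os are bright in nearly every column, while Slc7a14 in enteric neurons and Slc38a3 in endothelium are bright in 1 column; endothelium, lymphoid, mesothelium, C27 and goblet have under 50 cells in a library.

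Outside the epithelium, several members were concentrated in 1 cell class in both libraries. At least 2-fold higher in epithelial-like than in non-epithelial cells of both libraries were 6 of 36 members, beside 12.3% of all genes: Slc1a1, Slc1a5, Slc1a6, Slc7a4, Slc7a9 and Slc7a11. At least 2-fold lower in the epithelium were 10 of 36, beside 29.4% of all genes: Slc1a3, Slc3a1, Slc7a2, Slc7a3, Slc7a7, Slc7a10, Slc7a14, Slc38a3, Slc38a4 and Slc43a3. The member genes, haemoglobin genes and mitochondrial genes were left out of the clustering, so the classes were not defined by the members' own values.

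Slc7a14 was highest in enteric neurons, at 86.7 CPM in control and 94.7 in maternal obesity, while enteric glia had 1.68 and 1.06. Slc38a3, a glutamine carrier of the blood-brain barrier and liver, stood at 71.7 and 52.3 in endothelium-like cells, from 24 and 19 UMIs in 35 and 32 cells. Macrophage-like cells held Slc7a8 at 95.1 and 96.5, above the proximal absorptive-like level, and Slc7a7, the exchanger mutated in lysinuric protein intolerance, at 34.5 and 51.3. Slc1a4, an exchanger of alanine, serine and cysteine, was highest in dendritic or B-like cells at 104 and 126.

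Slc1a3, the glutamate carrier known from astrocytes, had 18.7 and 23.9 CPM in the unnamed cluster C22, led by Snhg11 and Osr1, while enteric glia had 0.56 and 0.177. Slc7a10, an exchanger of small neutral amino acids, had 48.1 and 38.5 in mesothelium-like cells, whereas fibroblast-like cells had 32.9 and 31.5 and C22 had 24.2 and 41.1. Slc38a4 had 18.0 and 15.3 in C22. Slc43a3, a nucleobase carrier despite its family name, had 17.9 and 16.2 in enteric glia and 15.9 and 19.1 in macrophage-like cells.

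Between the libraries, 7 of 33 members with at least 20 UMIs were at least 1.5-fold higher in the non-epithelial cells of maternal obesity, beside 20.9% of all genes, and 1 was at least 1.5-fold lower, beside 4.84%. The members' share was near that of all genes in the higher direction. The median log2 ratio of the members there was 0.29, beside 0.14 for all genes. The higher members were Slc1a3, Slc3a1, Slc7a3, Slc36a1, Slc36a4, Slc38a10 and Slc43a2, and the lower one was Slc7a4, with 26 and 20 UMIs. With TMM factors as the scale 4 were higher and 2 lower. Of the 7 higher members, Slc38a10 had the most UMIs, at 20.5 and 34.4 CPM. It was above control in 10 of 10 classes that had at least 20 UMIs of it, and 4 of those intervals lay above 1. Counted the same way, intervals above 1 were 0 of 6 for Slc1a3, 0 of 2 for Slc3a1 and 1 of 4 for Slc36a1. They were 1 of 6 for Slc36a4, 2 of 4 for Slc7a3 (with 1 below 1) and 2 of 3 for Slc43a2. Fibroblast-like cells were 3.83% of control and 11.7% of maternal obesity cells, and their part in these pooled ratios was not tested.

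**Figure D4:**
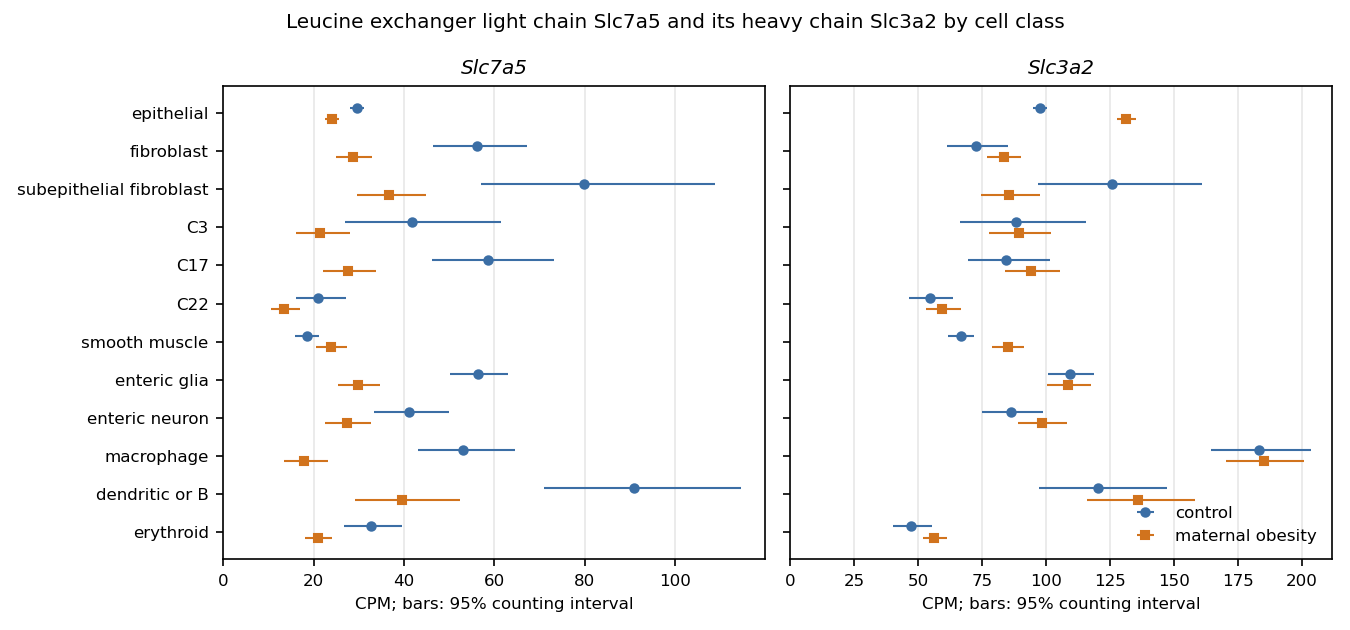
Level of Slc7a5 and Slc3a2 in CPM in the epithelium and in the 11 other classes with at least 50 cells in each library, for control (circles) and maternal obesity (squares), with 95% counting intervals. The Slc7a5 squares lie left of the circles in all but smooth muscle, whereas the Slc3a2 squares and circles overlap in most classes.

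Slc7a5, the leucine exchanger light chain that supplies mTORC1, differed in one direction across most non-epithelial classes. Of the 11 non-epithelial or erythroid classes with at least 50 cells in each library, 10 had an interval of the Slc7a5 ratio wholly below 1. In erythroid cells, 1 of these 10, haemoglobin was 78.0% of UMIs in control and 87.1% in maternal obesity. Its part in their Slc7a5 ratio was not tested. Among the 4892 genes with at least 20 UMIs in all 11 classes, 3.05% had at least 10 intervals below 1 and 1.51% at least 10 above 1, and of the 7 members among them only Slc7a5 did. In macrophage-like cells Slc7a5 had 53.1 CPM in control and 17.8 in maternal obesity, 2.98-fold lower. Enteric glia had 56.4 and 29.8 CPM of Slc7a5, fibroblast-like cells 56.1 and 28.8, and dendritic or B-like cells 90.96 and 39.5. In smooth muscle-like cells the order was the opposite, with 18.5 and 23.8, a Slc7a5 ratio of 1.29 (1.05 to 1.58). The classes share the same 2 libraries, so they are not independent of one another. In the epithelium Slc7a5 was at 0.816-fold of control (0.751 to 0.886), and its heavy chain Slc3a2 had 1 interval below 1 among the 11 classes, in subepithelial fibroblast-like cells at 0.679-fold (0.511 to 0.914).

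Other genes of amino acid transport also differed in both directions. Of 14 with at least 20 UMIs in the epithelium, 4 were at least 1.5-fold higher in maternal obesity and 3 at least 1.5-fold lower, beside 11.9% and 12.6% of all genes. Slc6a14, a broad carrier of neutral and cationic amino acids in distal colon, stood at 24.6 and 5.74 CPM and was among the leading genes of sub-cluster E1, of which 165 cells were control and 22 maternal obesity. Slc6a20, a proline carrier, was 1.55-fold higher (1.39 to 1.73). The mitochondrial carriers Slc25a13 and Slc25a15, which serve the urea cycle, were 2.21-fold (1.95 to 2.52) and 2.05-fold (1.79 to 2.34) higher. Slc6a19, the main neutral amino acid carrier of the adult small intestine, had 2 and 5 UMIs, and its partner Cltrn 4 and 1.

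Genes of the amino acid response differed in both directions in the epithelium. Of 20 with at least 20 UMIs, 3 were at least 1.5-fold higher and 3 at least 1.5-fold lower, with a median log2 ratio of -0.00311, and the background was 11.9% and 12.6%. In non-epithelial cells 1 of 19 was higher (Vldlr) and 7 were lower (Ddit3, Trib3, Chac1, Sesn2, Psph, Mthfd2 and Ddit4), beside 20.9% and 4.84% of all genes there, with a median log2 ratio of -0.35. Chac1 had 3616 and 1747 UMIs in those cells and was 3.17-fold lower (2.99 to 3.36). Atf4, the transcription factor of that response, was at 0.743-fold of control in the epithelium (0.728 to 0.757). Psat1, of serine synthesis, was 1.87-fold higher (1.79 to 1.96), whereas Chac1, which breaks down glutathione, was 1.88-fold lower and Ddit4, an inhibitor of mTORC1, 2.22-fold lower. Among the 9 members known as Atf4 targets, 1 was at least 1.5-fold higher (Slc7a3) and 2 at least 1.5-fold lower (Slc1a5 and Slc7a11). Of 20 genes that sense amino acids upstream of mTORC1, 2 were at least 1.5-fold higher in the epithelium (Lamtor3 and Sesn1) and 0 lower. Of 8 genes of glutathione synthesis 1 was higher there (Ggt1) and 0 lower. Over all genes of the epithelium 11.9% were that much higher and 12.6% that much lower.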

How the data were processed

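The authors deposited raw UMI counts per gene and barcode, 1 barcode-filtered matrix for each library, with no normalization. Per the file headers the version was cellranger 6.1.2, and per the submitters' processing notes it was Cell Ranger 2.1.1; the build and counting settings are not given in the sources used here. Counts of identifiers that share a symbol (173 symbols) were added up. Barcodes passed with 500 or more genes and a mitochondrial share of up to 20% (6879 and 7236). The automatic threshold of Scrublet (scanpy 1.11.5) called 0.0291% of control cells, under the minimum of 0.5%, so the cells with the highest scores were removed up to the expected share of 0.8% per 1000 barcodes (379 and 419 cells). That choice was made after seeing the data.

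Cells were clustered on 2000 variable genes, 30 components and 15 neighbours (Leiden, resolution 1). The members, haemoglobin genes (11.5% and 20.6% of UMIs) and mitochondrial genes were left out of the variable genes. This gave 35 clusters and 16 epithelial sub-clusters. They were named from fixed marker lists by a rule set after seeing the clusters: at least 3 markers higher, and a mean log2 fold of at least 1.25 leading by 0.5 or a marker among the top 10 genes. Low-UMI clusters of epithelial kind and 2 mixed sub-clusters were set aside. Non-epithelial cells are all others except erythroid ones.

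UMIs were summed per class and library. Ratios carry exact conditional binomial, levels exact Poisson and shares Clopper-Pearson 95% intervals. For a count of 0 the limit is 3 counts. Medians of log2 ratios use 0.5 added UMIs. A member counts as higher or lower at 1.5-fold with at least 20 UMIs. Intervals were tested on simulated counts. Members with at least 100 UMIs could be named with values, and of other lists the 3 highest and those at least 1.5-fold different with at least 100 UMIs. Genes named below those limits (Slc38a11, Slc6a19, Cltrn) and the small intestinal and distal genes were chosen after their values were seen. Also below the limits, Slc7a12 and Slc7a15 are named for their promoter match, and Slc1a2, Slc1a7 and Slc36a3 for having no UMIs in the epithelium. The members and lists were chosen with earlier results of these data known. Promoter sequences are from RefSeq (GRCr8).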

Additional observations from a re-analysis of the deposited data

Results flagged for a closer look

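Slc43a2 was 0.561-fold of control in pooled epithelial-like cells and 1.65-fold in pooled non-epithelial cells, with both intervals clear of 1. Among the 4 larger epithelial types with at least 20 UMIs of Slc43a2, 0 intervals lay below 1 and 1 above. Its equal-weight mean log2 ratio was 0.32. Slc36a4 was at 0.633-fold and 1.54-fold in the same pools, with both intervals clear of 1. The 1 larger epithelial type with at least 20 UMIs of Slc36a4 was at 0.854-fold, with an interval that included 1. The equal-weight mean log2 ratio of Slc36a4 was -0.52, although 5 of the 8 sub-clusters had a positive log2 ratio. These values rest on few UMIs, as the whole epithelium held 81 and 40 of Slc36a4. Slc7a3, a cationic carrier, was 7.94-fold of control in the unnamed cluster C17, led by cell cycle genes and Tcf21, and 0.135-fold in enteric glia (28 and 4 UMIs). It was also 6.40-fold higher in smooth muscle-like cells (11 and 56 UMIs). Slc7a8 was 1.68-fold in enteric glia and 0.505-fold in fibroblast-like cells. Slc7a6os was 1.80-fold in defensin-rich secretory-like cells and 0.273-fold in erythroid cells. Haemoglobin made up 78.0% of the UMIs of erythroid cells in control and 87.1% in maternal obesity. CPM there includes it, and its part in the erythroid ratio was not tested. With 1 library per group the difference between classes was not tested for any of these genes.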

How the results depend on the processing

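Results were recomputed under 12 other settings and 3 more chosen after seeing the data, which counted the low-UMI clusters as epithelial-like or as non-epithelial, or pooled the sub-clusters of the equal weighting. Equal weight over sub-clusters, which also leaves out those with under 30 cells in a library, turned the log2 ratios of Slc1a1 (0.48), Slc1a5 (0.60), Slc43a2 (0.32), Slc7a11 (0.34) and Slc7a8 (-0.0707), gave 3 higher and 3 lower members in the epithelium, and moved the median to 0.22. The same sub-clusters pooled gave 3 higher and 4 lower members and turned none of these ratios. No other setting reversed a called epithelial ratio of a member with at least 100 UMIs. The number lower in the epithelium was 6 at clustering resolution 2 and 6 with a minimum of 100 UMIs. The number higher there was 2 with that minimum and 9 with a minimum of 1 UMI. In non-epithelial cells the number higher was 4 with TMM factors, which moved log2 ratios by -0.12, and 13 with a minimum of 1 UMI. The number lower there was 2 with no doublets removed, 2 at resolution 2, 2 with TMM factors, 0 with a minimum of 100 UMIs, 3 with a minimum of 1 UMI and 3 with the low-UMI clusters counted in. A goblet-like sub-cluster was named in 3 of 6 repeat clusterings, and cells with under 3000 UMIs limit the thinned shares. An immature-like sub-cluster was named only in the repeat with components centred per library. Ratios within goblet-like cells were not recomputed in any repeat clustering. Those within proximal absorptive-like cells were not recomputed with components centred. No paired analysis was possible because each group has 1 library and the labels give no shared replicate number.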

Other observations

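The low-UMI unnamed clusters, with medians of 1233 and 1281 UMIs per cell, held Slc38a2 at 624 CPM in control and 713 in maternal obesity, above its level in each class described. Slc7a5 stood at 165 and 158 there and Slc1a5 at 134 and 74.7.

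In the intestinal absorption list, which holds brush border and basolateral members, 4 of 10 tested members were at least 1.5-fold higher in the maternal obesity epithelium (Slc3a1, Slc7a9, Slc7a8 and Slc38a3) and 2 lower (Slc1a1 and Slc43a2), with a median log2 ratio of 0.34 beside 0.04 for all genes. Over all genes 11.9% were that much higher and 12.6% that much lower. The intervals of Slc3a1 and Slc38a3 included 1, and the log2 ratio of Slc7a8 was -0.0707 with equal weight over sub-clusters.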
